A study of Homo sapiens with 3 samples.

Results

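The actin cytoskeleton and focal adhesion genes examined here are 51 genes that encode actins, subunits and activators of the ARP2/3 complex, formins, ENA/VASP proteins, actin-binding and crosslinking proteins, nonmuscle myosin II, tropomyosins, calponins, transgelins, ERM proteins and proteins of the adhesion plaque. They were chosen by name for what their products do, with earlier results of these data known. All 51 were found by their Ensembl identifiers among the 58333 genes of the table. Poly(A)+ RNA was sequenced from Cal62 cells, a human thyroid cancer cell line, transfected with a control siRNA (siControl) or with 1 of 2 siRNAs against ADAR1 (siADAR1 #1 and siADAR1 #2). The siRNAs silence the gene transiently in a single cell line, and each condition had 2 biological replicates, 6 libraries in all. The question was how silencing of ADAR1, the enzyme that converts adenosine to inosine in double-stranded RNA, changes gene expression in these cells.

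Actin filaments grow from monomers that profilin delivers, branch where the ARP2/3 complex binds, elongate under formins and ENA/VASP proteins, and are severed by cofilin. Myosin II pulls on filaments that alpha-actinin and filamin crosslink and tropomyosins coat. At focal adhesions talin and vinculin couple these filaments to integrins, with paxillin and zyxin as adaptors, and the assembly lets an epithelial tumor cell spread, pull and invade.

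The total read count on genes was 30114840 in the smallest library and 50029763 in the largest, and the normalized count of a gene is its reads after the authors' scaling for library size. ADAR fell from 10906 and 11701 normalized counts in siControl to 1328 and 2246 in siADAR1 #1 and to 1663 and 2928 in siADAR1 #2, so the labels matched the silenced gene. Of the thyroid markers, PAX8 had between 7.64 and 45.7 RPKM (recovered reads scaled by exon length in kb and by all reads on genes), lower in both siADAR1 #2 libraries than in any other, whereas TG had at most 55 reads in a library, TSHR at most 84 reads, and NKX2-1 had 0 reads in every library, where 3 reads are the limit that a count of 0 allows. Of the epithelial markers, KRT18 had 171 to 427 RPKM, lowest in the siADAR1 #2 libraries, KRT19 had 23.1 to 67.8 RPKM, highest in them, KRT8 had 94.9 to 139, EPCAM 14.7 to 22.1 and CDH1 0.14 to 0.72. The mesenchymal genes VIM and FN1 ranged from 22.6 to 381 and from 37.3 to 226 RPKM over the libraries, lower in every siADAR1 library than in siControl, whereas CDH2, at 11.1 to 14.9 RPKM, overlapped between the conditions. The part of these markers in the results below was not tested. Smooth muscle actin ACTA2 stayed at or below 101 normalized counts, and PTPRC, a leukocyte marker, at or below 6.28.

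In siControl the members spanned a wide range of levels per length. ACTB had 1101 ± 23.9 RPKM (SD, n = 2), ACTG1 had 663 ± 19.0 and PFN1 had 661 ± 7.71. By this measure they ranked 20, 26 and 27 among 19793 protein-coding genes. GSN had 0.82, EVL 0.91 and LIMA1 1.05 RPKM in siControl. All 51 passed the filter on low values. The members together held 2.92% and 2.87% of all reads with siControl, 2.45% and 2.38% with siADAR1 #1, and 2.21% and 2.10% with siADAR1 #2. The share was thus lower in each of the 4 siADAR1 libraries than in either siControl library.

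**Figure D1:**
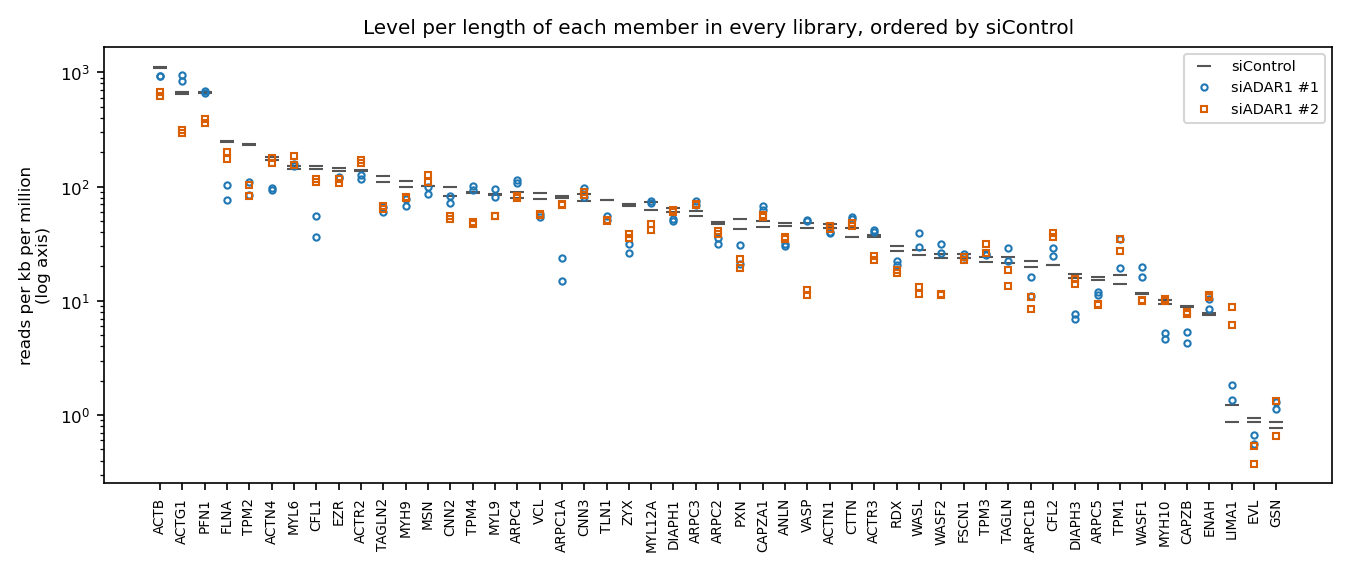
Level of each member in every library, in RPKM on a log axis, ordered by the siControl mean, with dashes for siControl, circles for siADAR1 #1 and squares for siADAR1 #2. The actins and PFN1 stand highest, and squares lie below the dashes for ACTB, ACTG1, PFN1, VASP, WASL and WASF2.

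A gene was called when its adjusted p-value was under 0.05 and its log2FC was beyond 0.5 in either direction (limma, adjusted over 20858 genes). A log2FC is the difference of the mean log2 values of 2 conditions. With siADAR1 #1, 19 of the 51 members (37.3%) were called lower and 1 (1.96%) higher, against 10.6% and 6.18% of all genes tested (16.8% in either direction). With siADAR1 #2, 26 of 51 were called lower and 2 (3.92%) higher, against 15.5% and 11.1% of all genes tested (26.6% in either direction). With at least 1 of the siRNAs 36 members (70.6%) were called, against 36.6% of all genes tested. The share over all genes depends on the filter on low values, which all members passed. With a filter at log2 of 50, 14177 genes were tested, and 2253 were called lower with siADAR1 #1 and 3117 with siADAR1 #2. The median log2FC of all genes was then -0.07 and -0.08, and 20 and 29 members were called. The median log2FC of the members was -0.26 with siADAR1 #1 and -0.55 with siADAR1 #2, while that of all genes tested was -0.02 and -0.01. The siADAR1 #1 median was -0.12 without siControl replicate 1, -0.12 with libraries centred on their medians and -0.15 after quantile normalization, and the siADAR1 #2 median was -0.32 after quantile normalization. For 26 members every siADAR1 library was less abundant than either siControl library and for 4 (ARPC3, CFL2, CAPZA1 and TPM1) every one was more abundant, against 16.6% and 12.0% of all genes tested. Both comparisons share the siControl libraries, so their values are given side by side below. These values are relative to the other poly(A)+ RNAs of the same library, and they do not measure a change in the amount of RNA per cell.

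With the 4 siADAR1 libraries as 1 group, 0 members were called (limma), as were 0 of all genes tested. In that fit 21 of 51 members had an unadjusted p-value under 0.05 (limma), against 2916 of the 20858 genes tested. A negative log2FC was found for 38 members. Their median was -0.49, or -0.32 after quantile normalization, against -0.03 and 0.01 for all genes tested. Voom on recovered reads also called 0, but when each siRNA kept a group of its own and the mean of both changes was tested, 26 members were called, 25 of them lower, against 17.2% of all genes tested in either direction and 11.1% lower.

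**Figure D2:**
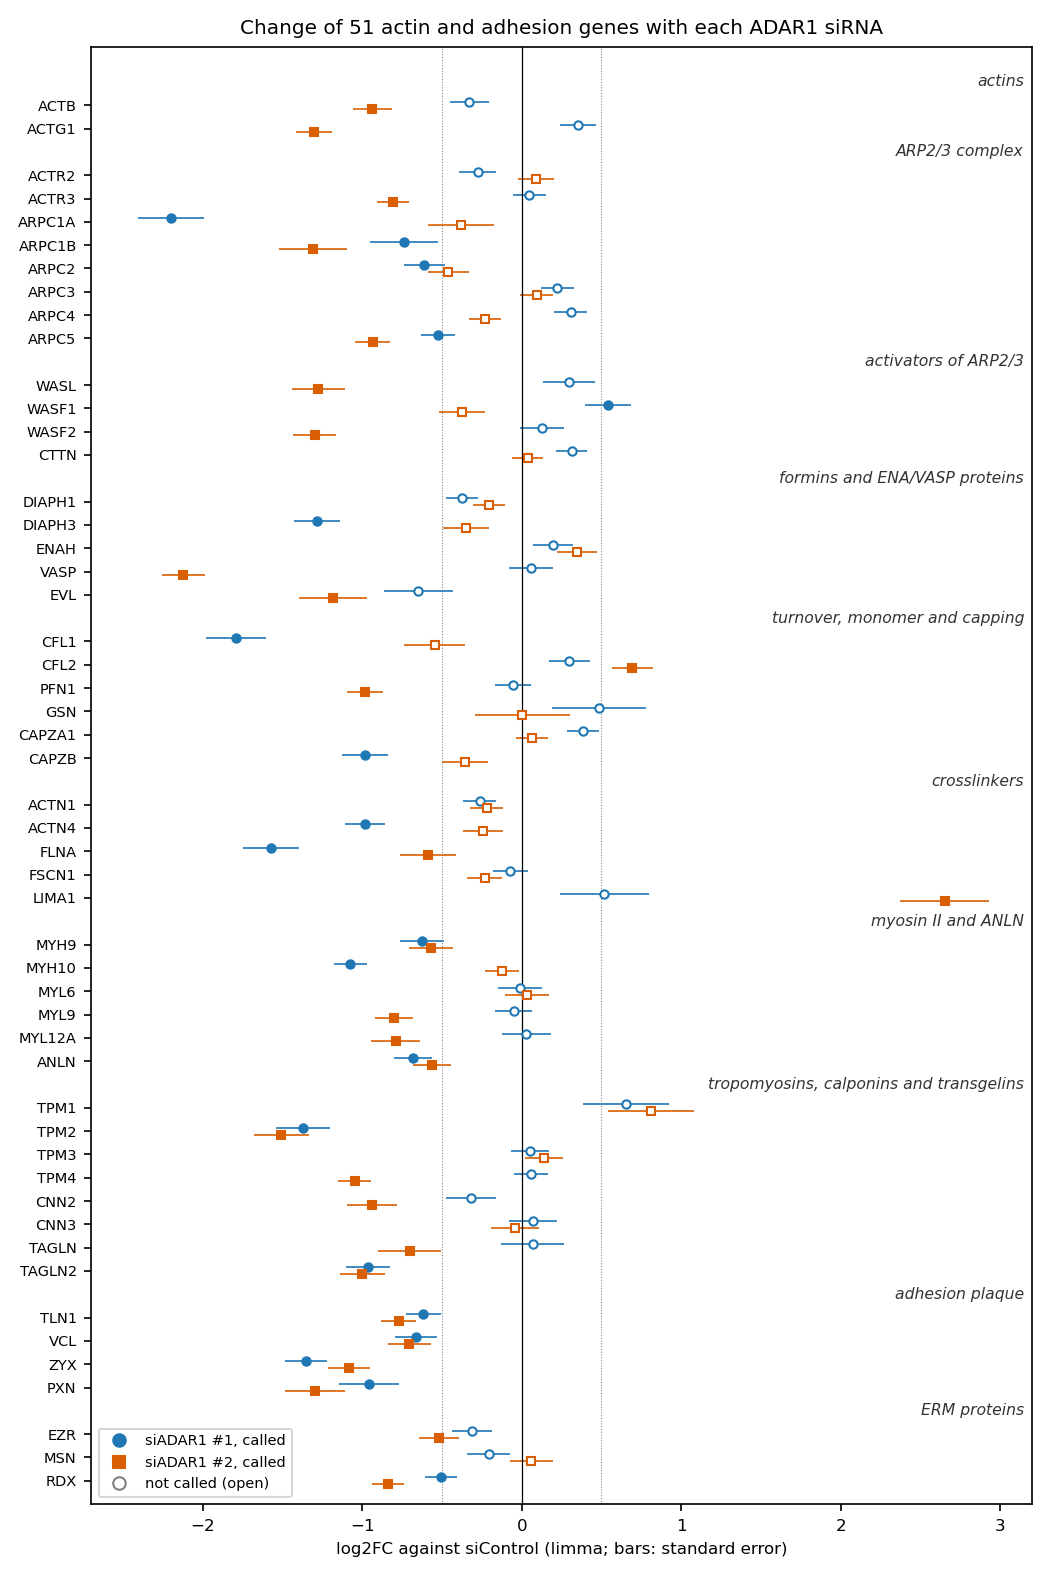
Log2FC of each member against siControl with its standard error, grouped by role, with circles for siADAR1 #1 and squares for siADAR1 #2, filled where the gene was called. The points of TLN1, VCL, ZYX and PXN all lie left of -0.5, and LIMA1 with siADAR1 #2 stands apart at 2.65.

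No member called in a comparison changed direction under any of the 16 alternative settings tried for it. With siADAR1 #1, ARPC1A, DIAPH3, CFL1, ACTN4, FLNA, MYH10 and ZYX were called under all 16. The other 13 calls, those of ARPC1B, ARPC2, ARPC5, WASF1, CAPZB, MYH9, ANLN, TPM2, TAGLN2, TLN1, VCL, PXN and RDX, were lost without siControl replicate 1. Of these, ARPC1B, ARPC5, WASF1, PXN and RDX were also lost without siControl replicate 2. ARPC1B, ARPC2, ARPC5, WASF1, MYH9, VCL and RDX were lost without siADAR1 #1 replicate 1, MYH9 and RDX without siADAR1 #1 replicate 2, and ARPC1B and WASF1 without either siADAR1 #2 library. With siADAR1 #2, 23 of the 28 calls held under all 16 settings, and the exceptions were FLNA, MYH9, ANLN, TAGLN and EZR. All 5 were lost without siControl replicate 1. FLNA and TAGLN were lost without siControl replicate 2, FLNA, MYH9, ANLN and EZR without siADAR1 #2 replicate 1, and FLNA, MYH9, TAGLN and EZR without siADAR1 #2 replicate 2.

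The adhesion plaque was the role in which each listed gene fell with each siRNA. ZYX (zyxin, a LIM protein recruited to adhesions and stress fibers under tension; GRCh38 chromosome 7, 143381295 to 143391111, forward strand) had 11912 and 10945 normalized counts in siControl, against 4010 and 4963 with siADAR1 #1 and 5275 and 5503 with siADAR1 #2. Its siADAR1 libraries were all less abundant than either control, and the mean was 39.3% of siControl with siADAR1 #1 and 47.2% with siADAR1 #2. The log2FC was -1.36 (standard error, SE, 0.13, limma adjusted p-value 0.00236) with siADAR1 #1 and -1.08 (SE 0.13, limma adjusted p-value 0.00103) with siADAR1 #2.
PXN (paxillin, a docking protein for kinases of the adhesion; chromosome 12, 120210439 to 120265771, reverse strand) had 16896 and 18142 normalized counts in siControl, against 7368 and 11024 with siADAR1 #1 and 6560 and 7722 with siADAR1 #2. The siADAR1 libraries all lay below both controls, while siADAR1 #1, whose replicates were well apart, overlapped siADAR1 #2. Its log2FC was -0.96 (adjusted p-value 0.0133, limma) and -1.30 (adjusted p-value 0.00199, limma). Exons of antisense genes cover part of PXN, 27.2% of its exon length in all, and whether counting used strand is not given in the sources used here.
TLN1 (talin, which activates integrins and links them to actin; chromosome 9, 35696948 to 35732195, reverse strand) went from 40698 and 35736 normalized counts in siControl to 25622 and 24105 in siADAR1 #1 and 22470 and 22166 in siADAR1 #2. VCL (vinculin, which reinforces the link between talin and actin; chromosome 10, 73995193 to 74121363, forward strand) went from 47298 and 36705 to 26839 and 25840 and to 25557 and 25582. For both genes the 4 siADAR1 libraries were close to each other and below the controls. TLN1 had a log2FC of -0.62 (adjusted p-value 0.00962, limma) and -0.77 (adjusted p-value 0.00182, limma), and VCL -0.66 (adjusted p-value 0.0149, limma) and -0.70 (adjusted p-value 0.0062, limma). None of the 4 plaque genes was called between the siRNAs, with differences of siADAR1 #2 minus siADAR1 #1 from -0.34 to 0.27 on the log2 scale and standard errors from 0.11 to 0.19.

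**Figure D3:**
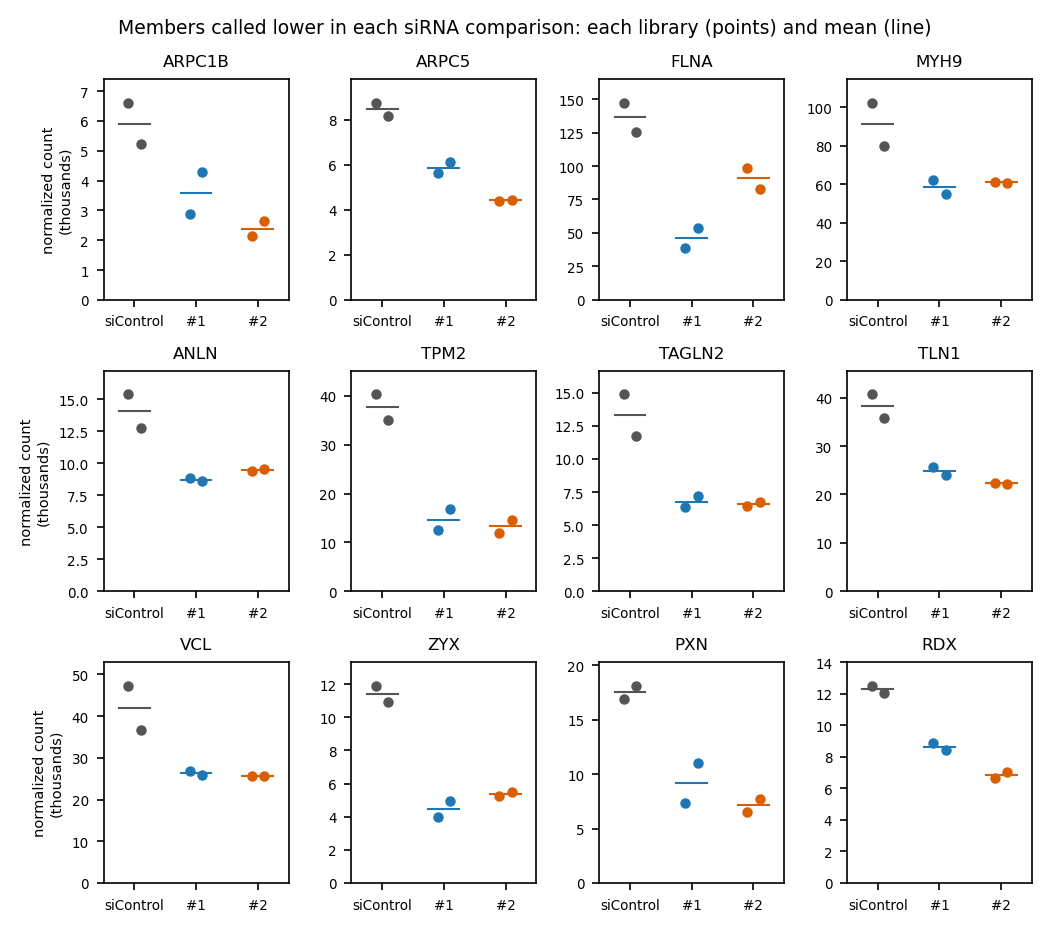
Normalized counts of the members called lower in each siRNA comparison, with a point for each library and a line at the mean of the 2 libraries, on axes that start at 0. The panels were chosen by these calls. Of the 12 members, 7 were called lower in each comparison after quantile normalization, 7 with voom and 3 with eBayes without a trend. The matching share of all genes tested was not counted, and both comparisons share the siControl libraries. The count of 12 is therefore a description only. In every panel the points of siADAR1 #1 and siADAR1 #2 lie below both siControl points, and in FLNA those of siADAR1 #1 lie below those of siADAR1 #2.

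The crosslinkers moved unequally. FLNA (filamin A, which holds actin filaments in orthogonal networks; chromosome X, 154348524 to 154374634, reverse strand) had 147300 and 125186 normalized counts in siControl, against 38936 and 53487 with siADAR1 #1 and 98693 and 82799 with siADAR1 #2. The conditions did not overlap, and siADAR1 #1 was the lowest, at 33.9% of siControl. The log2FC was -1.57 with siADAR1 #1 (SE 0.17, limma adjusted p-value 0.00295) and -0.59 with siADAR1 #2 (SE 0.17, limma adjusted p-value 0.0381), and the siRNAs differed by 0.99 (adjusted p-value 0.00363, limma). With siADAR1 #2 the FLNA value was -0.11 after quantile normalization (adjusted p-value 0.62; 0.0234 to 0.62 over the alternatives).
ACTN4, a nonmuscle alpha-actinin, fell with siADAR1 #1, from 60032 and 49632 normalized counts to 27959 and 27361 (log2FC -0.98, adjusted p-value 0.00382, limma), and had 48799 and 43611 with siADAR1 #2 (log2FC -0.24, adjusted p-value 0.189, limma). The test between the siRNAs gave 0.74 (adjusted p-value 0.00302, limma). Its paralog ACTN1 and the filopodial bundler FSCN1 were not called with either siRNA, with log2FC values from -0.26 to -0.07.
LIMA1 (EPLIN, a filament-bundling protein of epithelial cells) was the member with the largest rise. It had 413 and 259 normalized counts in siControl, against 540 and 408 with siADAR1 #1 and 2496 and 1715 with siADAR1 #2, so siADAR1 #2 stood apart from both other conditions. The log2FC was 2.65 (SE 0.28, limma adjusted p-value 0.000625) with siADAR1 #2 and 0.52 (SE 0.28, limma adjusted p-value 0.241) with siADAR1 #1.

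Both cytoplasmic actins, the products of ACTB and ACTG1, fell with siADAR1 #2. ACTB had 263733 and 225159 normalized counts in siControl, against 191451 and 196358 with siADAR1 #1 and 133684 and 120955 with siADAR1 #2 (log2FC -0.33, adjusted p-value 0.105, and -0.94, adjusted p-value 0.0014, limma). ACTG1 had 140943 and 129211 in siControl, against 180517 and 164522 with siADAR1 #1 and 57101 and 52534 with siADAR1 #2 (log2FC 0.35, adjusted p-value 0.0682, and -1.30, adjusted p-value 0.000377, limma). The siADAR1 #1 libraries of ACTG1 thus lay above both controls and the siADAR1 #2 libraries below them, and the siRNAs differed by -1.65 (SE 0.11, limma adjusted p-value 0.000144). Per length, ACTB and ACTG1 had 1101 and 663 RPKM in siControl, 929 and 899 with siADAR1 #1, and 648 and 303 with siADAR1 #2. The level of ACTB was therefore above that of ACTG1 by more than their SDs (35.4 and 13.0) with siADAR1 #2, and within the SD of ACTG1 (75.2, n = 2) with siADAR1 #1. Processed pseudogenes are a source of shared reads for such genes, and the 11 annotated for ACTB and 20 for ACTG1 held 0.0364% and 0.18% of the reads of gene and pseudogenes together. These shares hold only reads assigned to pseudogene entries, so reads that match both places equally are not measured by them. PFN1 (profilin, which feeds monomers to growing ends) fell with siADAR1 #2 as well, from 57079 and 49428 normalized counts in siControl to 25988 and 27812 (log2FC -0.98, adjusted p-value 0.000835, limma). With siADAR1 #1 it had 51281 and 50902 (log2FC -0.06, adjusted p-value 0.775, limma).

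CFL1, the main cofilin of nonmuscle cells, fell with siADAR1 #1. It had 44595 and 41505 normalized counts in siControl, against 9929 and 15537 with siADAR1 #1 and 28877 and 30034 with siADAR1 #2, which puts siADAR1 #1 at 29.6% of siControl and siADAR1 #2 at 68.4%. The log2FC was -1.79 (SE 0.19, limma adjusted p-value 0.00267) with siADAR1 #1 and -0.55 (SE 0.19, limma adjusted p-value 0.0658) with siADAR1 #2. The latter was called under 5 of 16 alternatives, and its adjusted p-value ranged from 0.00989 to 0.244 over them.
Its paralog CFL2 rose with siADAR1 #2, from 5435 and 4798 normalized counts to 8677 and 7873 (log2FC 0.69, adjusted p-value 0.00546, limma), and had 6772 and 5822 with siADAR1 #1 (log2FC 0.30, adjusted p-value 0.149, limma). Per length, CFL1 stood at 146 and CFL2 at 20.6 RPKM in siControl, and at 45.7 and 26.9 with siADAR1 #1. Of the capping protein subunits, CAPZB was called lower with siADAR1 #1 (log2FC -0.98, adjusted p-value 0.00565, limma) and CAPZA1 was not called, with 0.38 (adjusted p-value 0.0375, limma). Other annotated genes overlap 19.0% of the exon length of CFL1 and 14.2% of that of ACTN4 on the opposite strand. The filament-severing gene GSN was called with neither siRNA, at 324 to 693 normalized counts over the 6 libraries.

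Of the 8 genes of the ARP2/3 complex, 4 were called lower with siADAR1 #1 and 3 with siADAR1 #2. ARPC1A and ARPC1B encode alternative forms of the same subunit, and ARPC1A was called lower with siADAR1 #1 and ARPC1B with each siRNA. ARPC1A had 8766 and 8042 normalized counts in siControl, against 1430 and 2336 with siADAR1 #1 and 6437 and 6455 with siADAR1 #2. This was the largest fall of any member with siADAR1 #1, with a log2FC of -2.20 (SE 0.21, limma adjusted p-value 0.00236), against -0.38 (adjusted p-value 0.212, limma) with siADAR1 #2. ARPC1B had 6613 and 5215 in siControl, against 2886 and 4302 with siADAR1 #1 and 2127 and 2637 with siADAR1 #2 (log2FC -0.74, adjusted p-value 0.0491, and -1.31, adjusted p-value 0.0033, limma).
With siADAR1 #1 the ARPC1B value was -0.45 without siADAR1 #1 replicate 1. A read-through gene overlaps both on the same strand, and overlapping annotation covers 58.6% of the exon length of ARPC1A and 25.7% of that of ARPC1B, so their counts are uncertain. ARPC5, a subunit at the periphery of the complex, went from 8752 and 8167 to 5613 and 6134 and to 4395 and 4447 normalized counts (log2FC -0.53, adjusted p-value 0.0159, and -0.93, adjusted p-value 0.000896, limma). ARPC2 was called lower with siADAR1 #1 (log2FC -0.61, adjusted p-value 0.0169, limma) and the actin-related ACTR3 with siADAR1 #2 (log2FC -0.81, adjusted p-value 0.00119, limma). ACTR2, ARPC3 and ARPC4 were not called with either siRNA, with log2FC values from -0.28 to 0.31.

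Of the 4 listed genes that switch on or stabilize the branches the complex makes, 2 were called lower with siADAR1 #2 and 1 higher with siADAR1 #1. WASL (N-WASP, which CDC42 activates) had 6450 and 5156 normalized counts in siControl, against 8019 and 6256 with siADAR1 #1 and 2247 and 2521 with siADAR1 #2. WASF2 (WAVE2, the activator downstream of RAC1 at lamellipodia) had 7852 and 6400, then 8293 and 7224, then 2860 and 2902. In both genes the siADAR1 #1 libraries overlapped the controls and the siADAR1 #2 libraries were well below. The log2FC with siADAR1 #2 was -1.28 for WASL (SE 0.16, limma adjusted p-value 0.00131) and -1.30 for WASF2 (SE 0.14, limma adjusted p-value 0.000619). WASF1 was the 1 member called higher with siADAR1 #1, at 3044 and 2519 against 2054 and 1761 normalized counts (log2FC 0.54, adjusted p-value 0.0373, limma), and 8 of 16 alternatives kept this call (0.0167 to 0.184 over them). Cortactin (CTTN), which stabilizes branches, was not called, with 0.31 and 0.04.

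VASP showed the largest fall with siADAR1 #2. This elongation factor of the ENA/VASP family had 9207 and 7267 normalized counts in siControl, against 8520 and 8489 with siADAR1 #1 and 1797 and 1960 with siADAR1 #2. The siADAR1 #1 libraries lay between the controls, and siADAR1 #2 was at 22.8% of siControl. Its log2FC was -2.12 (SE 0.14, limma adjusted p-value 0.000258) with siADAR1 #2 and 0.06 (adjusted p-value 0.821, limma) with siADAR1 #1, and the difference between the siRNAs was -2.18 (adjusted p-value 0.000138, limma).
ENAH (Mena), the paralog whose splicing the study followed, had 6164 and 5636 normalized counts in siControl, against 7432 and 6132 with siADAR1 #1 and 7442 and 7552 with siADAR1 #2. It was not called with siADAR1 #1 (log2FC 0.20, adjusted p-value 0.328, limma) or siADAR1 #2 (log2FC 0.35, adjusted p-value 0.0743, limma), although quantile normalization and voom called it higher with siADAR1 #2 (0.0119 to 0.254 over the alternatives). EVL, the third family member, was called lower with siADAR1 #2 (log2FC -1.18, adjusted p-value 0.00527, limma) at a level of 492 normalized counts or fewer. Among the formins, which nucleate unbranched filaments, DIAPH3 fell with siADAR1 #1, from 6862 and 5569 to 2385 and 2697 normalized counts (log2FC -1.28, adjusted p-value 0.003, limma), and had 5199 and 4538 with siADAR1 #2. DIAPH1 was not called (log2FC -0.38 and -0.21).

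**Figure D4:**
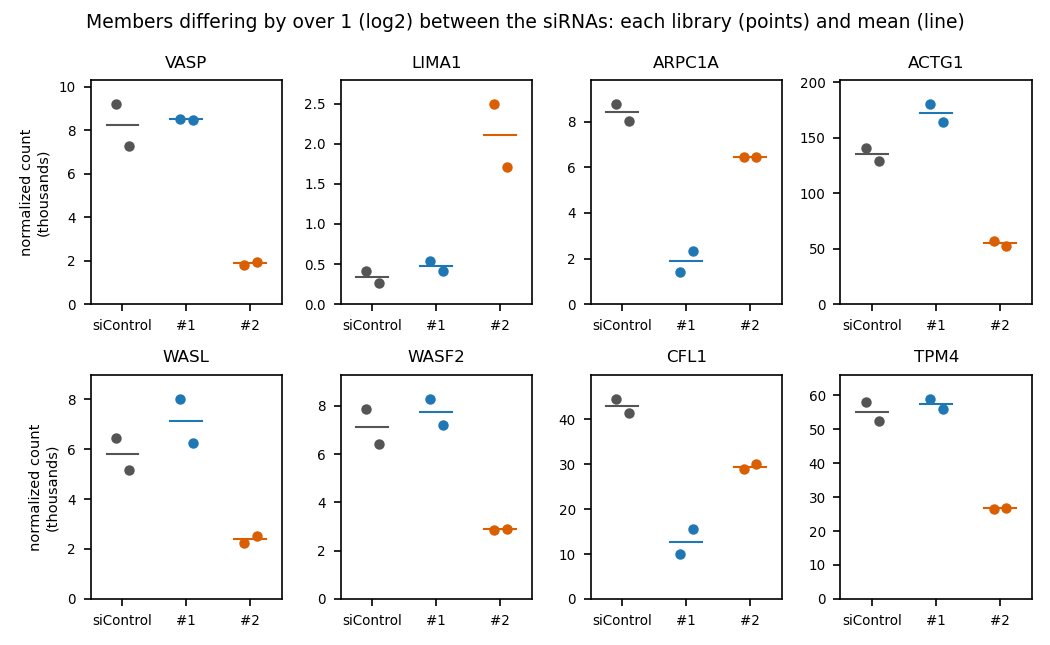
Normalized counts of the 8 members whose level differed by more than 1 on the log2 scale between the siRNAs, with a point for each library and a line at each mean, on axes that start at 0. ARPC1A and CFL1 are lowest with siADAR1 #1, VASP, WASL, WASF2, ACTG1 and TPM4 are lowest with siADAR1 #2, and LIMA1 is highest with siADAR1 #2.

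Of the myosin II genes, the heavy chain MYH9 had 102295 and 80006 normalized counts in siControl, against 62348 and 55097 with siADAR1 #1 and 61188 and 60776 with siADAR1 #2 (log2FC -0.63, adjusted p-value 0.0203, and -0.57, adjusted p-value 0.0182, limma). After quantile normalization these values were -0.31 and -0.13, with adjusted p-values of 0.089 and 0.413. The second heavy chain, MYH10, was at 8021 and 7330 normalized counts with siADAR1 #1 against 16570 and 15775 in siControl (log2FC -1.08, adjusted p-value 0.00236, limma) and had 15185 and 14495 with siADAR1 #2 (log2FC -0.12, adjusted p-value 0.423, limma). The regulatory light chains showed the opposite order. MYL9 and MYL12A were called lower with siADAR1 #2 (log2FC -0.80 and -0.79, adjusted p-values 0.00209 and 0.00686, limma) and had -0.05 and 0.03 with siADAR1 #1. The essential light chain MYL6 lay between -0.01 and 0.03 and was not called.
ANLN (anillin, the scaffold of the cytokinetic ring) went from 15408 and 12740 normalized counts to 8852 and 8611 with siADAR1 #1 and to 9386 and 9547 with siADAR1 #2 (log2FC -0.68, adjusted p-value 0.00952, and -0.57, adjusted p-value 0.00995, limma). Of 15 other cytokinesis genes, 4 were called lower with siADAR1 #1 and 11 with siADAR1 #2, with medians of -0.38 and -0.76. Among them PRC1 and INCENP, which act at the midzone and the centromere, fell with siADAR1 #2 (log2FC -2.27 and -1.31). Their part in the values of ANLN was not tested.

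The 4 tropomyosin genes, whose products decide which proteins reach a filament, did not move alike: TPM2 was called lower with each siRNA, TPM4 with siADAR1 #2, and TPM1 and TPM3 with neither. TPM2 had 40299 and 35042 normalized counts in siControl, against 12499 and 16821 with siADAR1 #1 and 11934 and 14640 with siADAR1 #2. All 4 siADAR1 libraries lay below both controls, and the difference between the siRNAs was -0.13 (SE 0.17, limma adjusted p-value 0.586). The log2FC was -1.37 (SE 0.17, limma adjusted p-value 0.00345) and -1.51 (SE 0.17, limma adjusted p-value 0.000799).
TPM4 fell with siADAR1 #2, from 58067 and 52346 to 26542 and 26802 normalized counts (log2FC -1.05, adjusted p-value 0.000537, limma), and had 59002 and 55854 with siADAR1 #1 (log2FC 0.06). TPM1 had 13345 and 9823 in siControl, against 23902 and 13619 with siADAR1 #1 and 22979 and 17551 with siADAR1 #2. The siADAR1 libraries all lay above the controls but were far apart, and the log2FC of 0.66 and 0.81 was not called (adjusted p-values 0.136 and 0.0567, limma), while 2 and 7 of 16 alternatives called it higher. TPM3 was between 0.05 and 0.14 and not called. Per length, TPM2 led the 4 genes in siControl with 235 ± 2.05 RPKM (SD, n = 2), ahead of TPM4 with 88.7, TPM3 with 23.2 and TPM1 with 15.6. With siADAR1 #1 the levels per length of TPM2 and TPM4 were 97.0 ± 18.5 and 98.0 ± 5.57 and did not differ beyond their spread. With siADAR1 #2 TPM2 was at 93.7 RPKM, 83.1 in 1 library and 104 in the other, above TPM4 at 48.3 ± 1.11. These orders rest on the annotated exon lengths, 3183 bases for TPM2 and 12375 for TPM4. By normalized counts TPM4 was above TPM2 in every library. The table has 1 value per gene, so tropomyosin isoforms made by splicing are not separated.
TAGLN2, a transgelin of epithelial cells, went from 14891 and 11736 normalized counts to 6339 and 7235 and to 6478 and 6735 (log2FC -0.96 and 49.6% of siControl with siADAR1 #1 and #2, limma adjusted p-values 0.00522 and 0.00178). TAGLN, the smooth muscle form, had 8489 and 6675 in siControl, against 8808 and 7067 with siADAR1 #1 and 5464 and 3905 with siADAR1 #2. It was called lower with siADAR1 #2 (log2FC -0.70, adjusted p-value 0.0304, limma; 0.00182 to 0.19 over the alternatives), with -0.46 without siADAR1 #2 replicate 2, and 47.8% of its exon length is overlapped by other genes. Per length, TAGLN2 stood at 116 and TAGLN at 22.9 RPKM in siControl, on annotated exon lengths of 2262 and 6550 bases. The calponin CNN2 was called lower with siADAR1 #2 (log2FC -0.94, adjusted p-value 0.00367, limma) and CNN3 with neither (log2FC 0.07 and -0.04).

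ERM proteins tie the cortex to the membrane. RDX (radixin) went from 12504 and 12021 normalized counts to 8841 and 8417 with siADAR1 #1 and to 6673 and 7032 with siADAR1 #2, a stepwise order with no overlap. The log2FC was -0.51 (adjusted p-value 0.0149, limma) and -0.84 (adjusted p-value 0.00106, limma), the former called under 8 of 16 alternatives with values from -0.54 to -0.36. EZR (ezrin) had 25767 and 21104 in siControl, against 18468 and 19036 with siADAR1 #1 and 17127 and 15506 with siADAR1 #2, and was called with siADAR1 #2 (log2FC -0.52, adjusted p-value 0.0176, limma). MSN (moesin) had 46249 to 65094 normalized counts over the 6 libraries. Its siADAR1 #1 libraries lay below both siControl libraries and those of siADAR1 #2 overlapped them, and neither was called (log2FC -0.21 and 0.06). Per length, EZR stood at 141, MSN at 101 and RDX at 28.7 RPKM in siControl. This order rests on the annotated exon lengths, 3286 bases for EZR, 11407 for MSN and 8518 for RDX. By normalized counts MSN was above EZR in every library.

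Between the siRNAs themselves, 14 members (27.5%) were called lower with siADAR1 #2 than with siADAR1 #1 and 8 (15.7%) higher. Of all genes tested, 16.1% were called lower and 16.7% higher (32.8% in either direction), so the share called higher was close to that of all genes. Those lower with siADAR1 #2 were ACTB, ACTG1, ACTR3, ARPC4, WASL, WASF1, WASF2, VASP, PFN1, MYL9, MYL12A, TPM4, CNN2 and TAGLN. Those higher with siADAR1 #2 were ARPC1A, DIAPH3, CFL1, CAPZB, ACTN4, FLNA, LIMA1 and MYH10. The median difference was -0.13 for the members and 0.00 for all genes tested, and the members had -0.26 with centred libraries, -0.07 after quantile normalization and -0.05 with voom. Of the 22 calls, 17 held under all 16 alternatives, and those of ACTB, ARPC4, CAPZB, CNN2 and TAGLN did not. ACTB was lost without siADAR1 #2 replicate 2, ARPC4 without siADAR1 #1 replicate 2, CAPZB without siADAR1 #1 replicate 1 or siADAR1 #2 replicate 1, CNN2 without siADAR1 #1 replicate 1 or either siADAR1 #2 library, and TAGLN without siADAR1 #1 replicate 1 or siADAR1 #2 replicate 2.

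Promoter sequence was read for the members because several actin genes are known targets of SRF, which binds a motif called the CArG box, and of TEAD factors. Of 51 members, 44 had an entry among the RefSeq promoters of GRCh38.p14, each reaching from 250 bases before the start to 50 bases after it. A CArG box was found in 4 of the 44 (9.09%), against 1.31% of 27305 promoters of the same length. Of the 11 members with an entry that were called lower in each siRNA comparison, 1 (9.09%) had a CArG box, the same share as among the 44. The letters GGAATG on either strand, a core of the TEAD motif, were found in 9 of the 44 (20.5%), against 14.2%. The windows are shown for the 4 genes with a CArG box, of which FLNA was called lower in each siRNA comparison and ACTG1, CNN2 and TPM4 with siADAR1 #2. The last 3 were added after their values were seen. Capitals mark the CArG box, and each window is written 5′ to 3′ on the strand of the gene.
FLNA (chrX:154374709-154374738, reverse strand): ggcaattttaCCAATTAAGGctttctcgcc
ACTG1 (chr17:81512874-81512903, reverse strand): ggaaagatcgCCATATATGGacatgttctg
TPM4 (chr19:16067355-16067384, forward strand): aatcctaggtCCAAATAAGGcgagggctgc
CNN2 (chr19:1026509-1026538, forward strand): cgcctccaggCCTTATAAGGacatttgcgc
The letters GGAATG or their reverse complement CATTCC were also found for CNN3, which was not called, and LIMA1, called higher with siADAR1 #2. They were found as well for DIAPH3 and MYH10, called lower with siADAR1 #1 only, and MYL12A and PFN1, with siADAR1 #2 only. Among the 11 members with an entry that were called lower in each comparison, the letters, in capitals, were found in the following 3 promoters (27.3%).
MYH9 (chr22:36388020-36388049, reverse strand): ggctcccggctgGGAATGgtcccgcggctc
PXN (chr12:120250213-120250242, reverse strand): tgtttccaggaaCATTCCtcttccttaggt
VCL (chr10:73997933-73997962, forward strand): gcccctcccttaGGAATGggggaggggcgg
A match is a description of the letters and not evidence of binding. The CArG boxes began between 173 and 89 bases before the start, and the GGAATG or CATTCC letters shown between 171 and 67 bases before it.

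Other genes of these pathways were counted in lists, where FHL2 stands in both the adhesion and the SRF list. Their counts are to be read against the 10.6% of all genes called lower and 6.18% called higher with siADAR1 #1, and the 15.5% and 11.1% with siADAR1 #2. Of 34 further focal adhesion genes, 9 were called lower and 1 higher with siADAR1 #1 and 12 lower and 4 higher with siADAR1 #2, with medians of -0.24 and -0.29. PTK2 (focal adhesion kinase) and the paxillin paralog TGFB1I1 (Hic-5) fell with siADAR1 #2 (log2FC -1.47 and -1.94, adjusted p-values 0.000277 and 0.000355, limma), as did the zyxin relative LPP (log2FC -1.35, adjusted p-value 0.000338, limma).
Of 14 tested activators of ARP2/3 and genes of the WAVE complex, 2 were called lower and 1 higher with siADAR1 #1 and 6 lower and 0 higher with siADAR1 #2, with medians of -0.22 and -0.07. Those lower included the WAVE subunit NCKAP1 (log2FC -1.21), the adaptor NCK2 (log2FC -2.14) and the WASP partner WIPF1 (log2FC -1.86) with siADAR1 #2. Of 18 tested turnover and capping genes, 2 were called lower and 2 higher with siADAR1 #1 and 7 lower and 2 higher with siADAR1 #2, with medians of 0.00 and -0.11. The 11.1% called lower with siADAR1 #1 and the 11.1% called higher with siADAR1 #2 were close to the shares of all genes. Those lower with siADAR1 #2 included the cyclase-associated CAP1 (log2FC -2.18), the thymosin TMSB10 (log2FC -1.11) and the supervillin gene SVIL (log2FC -1.93).
Of 10 tested formins beyond the members, 3 were called lower with siADAR1 #1 and 3 with siADAR1 #2, where 1 was higher, with medians of -0.28 and -0.26. FHOD3 had a log2FC of -1.96 and -1.86, DIAPH2 -1.34 and -1.05, and FMNL2 -0.60 and -0.76. Of these, DIAPH2 with siADAR1 #1 and with siADAR1 #2 kept its call in 15 of 16 alternatives and FMNL2 with siADAR1 #1 in 11 of 16. Of 22 further crosslinkers and myosins, 7 were called lower and 1 higher with siADAR1 #1, and 8 lower and 1 higher with siADAR1 #2, with medians of -0.13 and 0.05. The 1 higher with siADAR1 #2 was the plastin PLS3 (log2FC 0.99), whereas its paralog PLS1 (log2FC -1.90) and the vesicle motor MYO5A (log2FC -1.73) fell with siADAR1 #2.
Of 14 tested genes of SRF, its MRTF coactivators and their targets, 1 was called lower and 3 higher with siADAR1 #1, and 6 lower and 2 higher with siADAR1 #2, with medians of 0.08 and -0.75. ANKRD1, a target shared with YAP, rose with siADAR1 #2 (log2FC 4.15, adjusted p-value 0.000299, limma), while the early gene FOS (log2FC -1.54) and the coactivator MRTFB (log2FC -1.08) fell with it. The list thus held members that moved in both directions with siADAR1 #2.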

How the data were processed

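RNA from 3 transfections of Cal62 cells was sequenced with 75-bp paired-end reads, with 2 columns of values per labelled sample, taken as the 2 biological replicates given in the study's methods. The authors trimmed reads with Atropos, counted them on known genes with featureCounts, with Salmon run in parallel, and normalized gene values with DESeq2. For the normalization the paper states a preference for gene counts that Tximport estimated from Salmon. It names GRCh38 for the mapping in its splicing analysis. Which tool gave the counts behind the deposited values is not given in the sources used here. The deposited values are log2 values after variance stabilization. The lowest value, the same in all 6 libraries, stands for 0 reads, and undoing the transformation gave whole reads for 100% of values within 0.1 read. Normalized counts were obtained by undoing both the log and the variance stabilization. Symbols and exon lengths came from GENCODE release 44, and 57830 of 58333 identifiers matched. An exon length counts every base covered by any annotated exon of the gene, so levels per length depend on the annotation. 0 of 6 columns were left unused.
Groups were tested on the deposited log2 values using limma version 3.58.1 under R version 4.3.3 (lmFit, eBayes with trend, two-sided, Benjamini-Hochberg) in 1 fit of 3 groups with 3 residual degrees of freedom, and in a fit with siADAR1 as 1 group. Genes whose mean deposited value was at least log2 of 10, which is 7.62 normalized counts, were tested. Steps were tested on simulated data. Alternatives were filters, scalings, variance priors, voom on recovered reads, a replicate block and libraries left out. Precision is limited by having 2 libraries in a condition, and limits from 3 reads cover counting error only.
The members, lists and named genes were chosen with earlier results of these data known. Values in every library are given for members called in the same or opposite directions with the siRNAs, the 6 largest changes with each, the listed paralogs, ENAH and TPM2, and for others where they bear on these. The result of 1 further list is not reported here.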

Additional observations from a re-analysis of the deposited data

Results flagged for a closer look

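Members whose change differed between the siRNAs, by the limma test of siADAR1 #2 against siADAR1 #1, were set apart for a closer look. Those lower with siADAR1 #2 were 27.5% of the members and those higher 15.7%, against 16.1% and 16.7% of all genes tested. The share called higher was thus close to that of all genes. Lower with siADAR1 #2 were VASP (-2.18 on the log2 scale), ACTG1 (-1.65), WASL (-1.57), WASF2 (-1.43), TPM4 (-1.11), PFN1 (-0.93), WASF1 (-0.91), ACTR3 (-0.86), MYL12A (-0.82), TAGLN (-0.77), MYL9 (-0.75), CNN2 (-0.62), ACTB (-0.61) and ARPC4 (-0.54). Higher with siADAR1 #2 were LIMA1 (2.13), ARPC1A (1.82), CFL1 (1.25), FLNA (0.99), MYH10 (0.95), DIAPH3 (0.94), ACTN4 (0.74) and CAPZB (0.63). Groups of 2 libraries are too small to be searched for single outlying libraries.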

How the results depend on the processing

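With siADAR1 #1, 20 members were called, 10 when eBayes was run without a trend, and 7 to 19 with a library left out, the lowest without siControl replicate 1 (7) and the next without siADAR1 #1 replicate 1 (13). With siADAR1 #2, 28 were called, and 23 to 30 with a library left out. Between the siRNAs 22 were called, and 20 to 22 with a library left out. With both siRNAs as 1 group 0 were called, and 26 when the mean of both siRNA changes was tested with 3 groups fitted. All other settings kept these counts within 1.5 times. For single members, 55 alternative values with siADAR1 #1, 33 with siADAR1 #2 and 16 between the siRNAs lost a call, 4, 15 and 9 gained one, and 0 calls changed direction. Centring libraries on their medians moved the median change of all genes by 0.15 with siADAR1 #1 and by -0.13 between the siRNAs, and voom moved it by 0.18 with siADAR1 #2 and by 0.12 with both as 1 group. Less the median of all genes, the members' median was -0.24 with siADAR1 #1, -0.53 with siADAR1 #2 and -0.14 between the siRNAs. It was -0.18, -0.32 and -0.04 after quantile normalization, and -0.10 with siADAR1 #1 without siControl replicate 1. Centring leaves it as it is by construction. Replicate numbers, with a correlation of 0.106 to 0.162 between conditions for the difference of replicate 2 and replicate 1 over 20858 genes, were not taken as pairing from 2 replicates. With the replicate block, 22 members were called with siADAR1 #1, 30 with siADAR1 #2, 23 between the siRNAs and 0 with both as 1 group, and 0 calls were lost. The block added LIMA1 and TPM1 as higher with siADAR1 #1, with adjusted p-values of 0.047 and 0.00921 (limma), TPM1 as higher and CFL1 as lower with siADAR1 #2 (0.00201 and 0.0387), and ARPC1B as lower between the siRNAs (0.0498).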
